A study of Mus musculus with 2 samples.

Results

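The genes examined were Il10 and 5 genes of its signalling, Il10ra, Il10rb, Stat3, Socs3 and Bcl3, taken by name from the 32228 genes counted. All 6 had UMIs in both libraries. The cells were CD45+ leukocytes of the colonic lamina propria (LP) of C57BL/6 mice with acute colitis from dextran sulfate sodium (DSS) in the drinking water. One group was wild type (WT) and the other (Ring1aKO) carried a knockout of Ring1a, a catalytic subunit of Polycomb repressive complex 1. How the allele was made is not given in the sources used here. The labels gave an age of 8 to 10 weeks for both, 5 mice were pooled per group, and each pool made 1 library of 10x Genomics 3′ chemistry. All mice of both groups received DSS, so no value here is from a resting colon. With 1 library per genotype there was no replicate, genotype and library batch cannot be told apart, and no test of genotype was made.

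IL-10 is a homodimeric cytokine that limits inflammation, and mice and people that lack it or its receptor develop colitis. It binds a receptor made of the IL-10-specific chain IL-10Rα and the shared chain IL-10Rβ, and the receptor activates the transcription factor STAT3. STAT3 then raises a set of target genes, among them Socs3, an inhibitor of cytokine receptors that signal through gp130, and Bcl3, a nuclear IκB protein that restrains NF-κB target genes. In the colon, Foxp3+ regulatory T cells (Treg) and resident macrophages are known sources of IL-10, and macrophages are its best-known target.

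The matrices held 74414511 UMIs for WT and 81862096 for Ring1aKO. Barcodes with at least 1000 UMIs, at least 500 genes and less than 5% mitochondrial UMIs were taken as cells, which gave 6005 WT and 7918 Ring1aKO cells with medians of 6354 and 5035 UMIs. The knocked-out gene, Ring1, had 828 UMIs (13.4 CPM, its counts scaled by library size) in WT cells and 816 UMIs (11.8 CPM) in Ring1aKO cells. These 3′ reads therefore gave no check of the genotype labels, and whether they lie outside the deleted part is not given in the sources used here. Ptprc, which encodes CD45, was detected in 94.3% of WT and 87.1% of Ring1aKO cells. The libraries shared 11 cell barcodes. Cells were put into classes by gates on marker genes, and 17.6% of WT and 15.0% of Ring1aKO cells stayed unassigned. The makeup of the libraries differed: the monocyte gate held 739 and 222 cells, the C1q macrophage gate 291 and 215, the B gate 1200 and 3622, the Treg gate 215 and 233, the other CD4 T gate 432 and 364, and the plasma gate 574 and 465. Levels in CPM divide a gene's UMIs by the total UMIs of the gate and come with exact 95% Poisson intervals, and ratios as log2 of Ring1aKO over WT after 1 UMI was added to each count. All intervals cover counting error only and not the variation between mice. Those of levels, ratios and shares of UMIs treat UMIs as independent, so they also leave out the uneven spread of a gene over cells.

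Of the assigned gates, the Treg, C1q macrophage and monocyte gates held the largest shares of the Il10 UMIs in both libraries. The monocyte gate alone held 14.4% in WT and 12.9% in Ring1aKO, little more than T cells outside the Treg gate. In WT its level of 76.2 CPM lay below the other CD4 T gate (84.1 CPM) and cell-free barcodes (103 CPM). The Il10 level differed past 2-fold between the libraries in the monocyte and C1q macrophage gates. Both of these gates also differed in Ly6c2, the gene of inflammatory monocytes. Without the cells that held a Ly6c2 UMI, Il10 was still higher in Ring1aKO in both gates. The log2 ratios were then 0.90 and 0.98, short of 2-fold, which is a log2 ratio of 1. In the monocyte gate, however, the cells with a Ly6c2 UMI held most of the Il10 UMIs, and the difference among them was wider than in the whole gate. Il10 (ENSMUSG00000016529) lies at chr1:131019845-131024974 on the plus strand of GRCm38. It had 3672 UMIs in WT cells and 5190 in Ring1aKO cells, of which the Treg gate held 32.5% (31.0 to 34.1) and 25.6% (24.4 to 26.8). The monocyte and C1q macrophage gates together made up 17.2% of WT cells and held 33.6% (32.1 to 35.1) of the Il10 UMIs. In Ring1aKO they made up 5.52% of the cells and held 32.9% (31.6 to 34.2). These shares of Il10 overlapped although the share of cells was about 3 times smaller. T cells outside the Treg gate held 12.1% and 11.6% of the Il10 UMIs, and B and plasma cells together 7.63% and 9.79%.

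**Figure D1:**
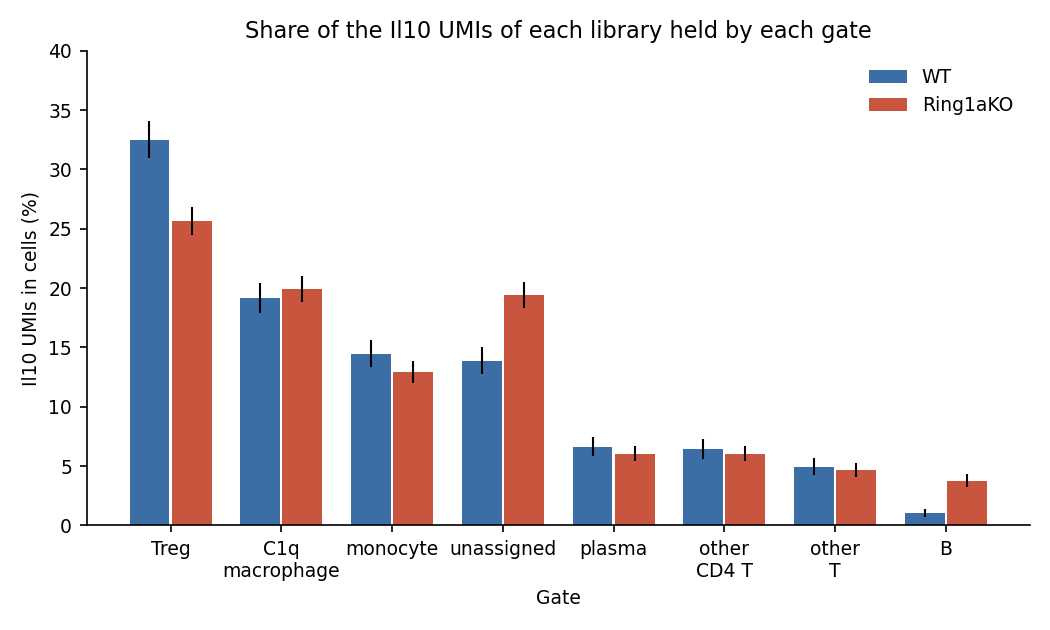
Share of the Il10 UMIs of a library (%, bars with exact 95% binomial intervals) held by each gate in WT and Ring1aKO. The Treg gate held the largest share in both libraries, 32.5% and 25.6%, and the C1q macrophage gate held 19.1% and 19.9%.

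The unassigned cells held 13.8% of the Il10 UMIs of WT and 19.4% of those of Ring1aKO. Most of this came from few cells: 32 WT and 57 Ring1aKO cells with at least 5 Il10 UMIs held 78.7% and 82.6% of it. Of these cells, 22 and 39 had at least 3 of the 6 monocyte/macrophage markers, 10 and 25 had at least 3 of the 6 T markers, and 4 and 10 had both. Cells failed the gates where no lineage both had at least 3 of its markers and led by enough markers. These cells were not added to any source.

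The Treg gate had the highest Il10 level of WT, 818 CPM (772 to 866, 1194 UMIs in 215 cells). In Ring1aKO the same gate had 619 CPM (586 to 653, 1330 UMIs in 233 cells). The intervals did not overlap and the Ring1aKO library was lower, with a log2 ratio of -0.40 (-0.52 to -0.29), short of the 2-fold used here to call a difference. The ratio shrank to -0.15 when cells with 2 of Ikzf2, Ctla4 and Il2ra were also counted as Treg. It also shrank to -0.21 as a mean over cells, -0.23 with fewer than 5000 genes per cell and -0.27 after thinning. An Il10 UMI was detected in 50.2% of WT and 54.9% of Ring1aKO cells of the gate, at median depths of 5451 and 6214 UMIs. After each cell was thinned to 1000 UMIs the shares were 33.5% and 34.3%. The neutrophil gate, taken as a class with little Il10, gave 2.94% and 4.33% at median depths of 4187 and 4955 UMIs, and 0.980% and 1.73% after thinning.

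Among CD4 T cells without a Foxp3 UMI, Il10 stood at 84.1 CPM (73.7 to 95.5) in WT and 129 CPM (115 to 144) in Ring1aKO. The log2 ratio of 0.62 (0.37 to 0.87) did not hold as a direction, since it was -0.19 after thinning and 0.01 as a mean over cells. The share of these cells with an Il10 UMI was 11.6% and 11.8%, and 22 and 18 cells with at least 5 Il10 UMIs held 81.7% and 88.8% of the UMIs. A gate on Foxp3 detection leaves Treg without a Foxp3 UMI in this class: under the wider Treg gate its log2 ratio was 1.65.

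In the monocyte gate Il10 was 76.2 CPM (69.9 to 83.0, 530 UMIs in 739 cells) in WT and 362 CPM (335 to 390, 671 UMIs in 222 cells) in Ring1aKO. The intervals did not overlap and the Ring1aKO library was the higher, by 4.74-fold or a log2 ratio of 2.25 (2.08 to 2.41). The 5 highest cells held 35.5% of these UMIs in WT and 34.1% in Ring1aKO, which the intervals do not take into account. In the C1q macrophage gate, which holds cells with the complement genes C1qa, C1qb and C1qc that mark resident macrophages, Il10 was 258 CPM (239 to 278, 703 UMIs in 291 cells) in WT and 747 CPM (703 to 794, 1035 UMIs in 215 cells) in Ring1aKO. This was 2.89-fold higher, with a log2 ratio of 1.53 (1.39 to 1.67). The order of the sources by CPM changed with it, without overlap of the intervals in either library. In WT the Treg gate stood above the C1q macrophage gate, and in Ring1aKO below it. By share of cells with an Il10 UMI the Treg gate of Ring1aKO stayed above, with 54.9% against 41.9%. After thinning this was 34.3% against 24.7%. In Ring1aKO the 5 highest cells held 30.4% of the Il10 UMIs of the C1q macrophage gate and 17.1% of those of the Treg gate.

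With all cells of the gates, Il10 was the only member of the 6 past 2-fold in either gate. In the background, 8.91% of the 7577 genes compared in the monocyte gate, those whose UMIs in WT and Ring1aKO summed to 50 or more, were past 2-fold, 121 of them higher and 554 lower in Ring1aKO. In the C1q macrophage gate this was 6.28% of 6135 genes, 148 higher and 237 lower. The median log2 ratio over all genes compared was -0.19 in the monocyte gate and -0.04 in the C1q macrophage gate, so the Il10 ratios stand against medians at or below 0.

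**Figure D2:**
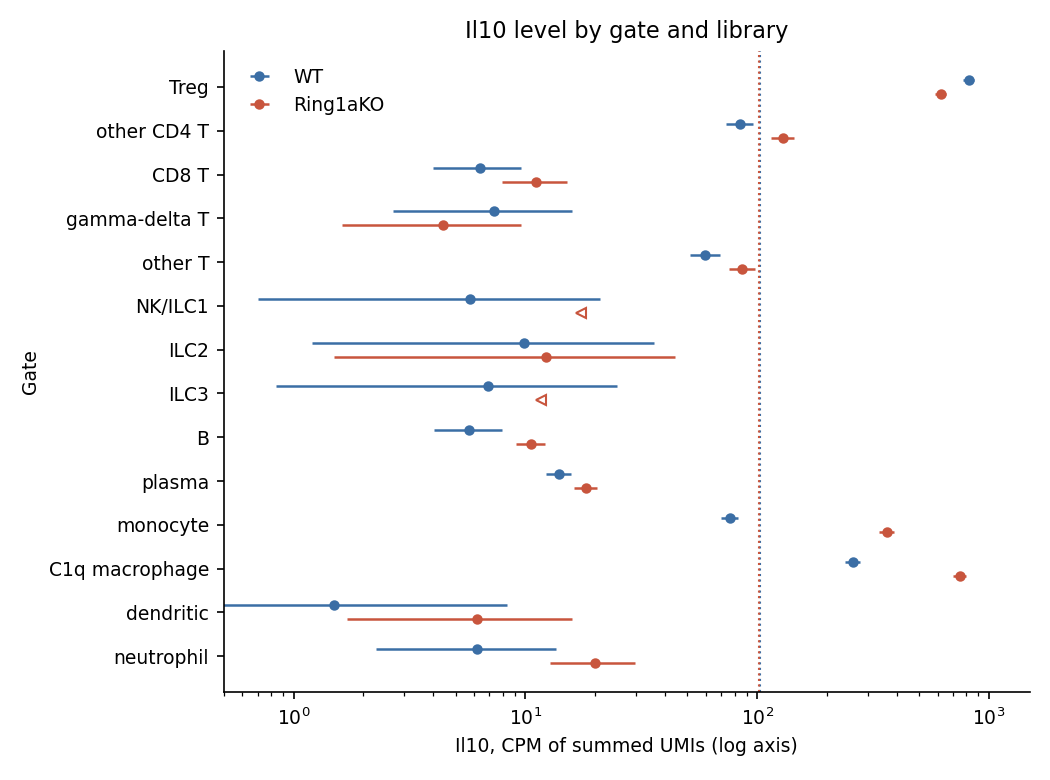
Il10 level (CPM, log axis) in 14 gates with at least 30 cells in each library, with exact 95% Poisson intervals. Open triangles are upper bounds where no UMI was found, and dotted lines are the levels in cell-free barcodes, 103 CPM in WT and 102 CPM in Ring1aKO. The Ring1aKO points lie above the WT points in the monocyte and C1q macrophage gates and below in the Treg gate.

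The cells in these gates differed between the libraries in monocyte genes. In the C1q macrophage gate Ly6c2 was 857 CPM (822 to 892) in WT and 53.4 CPM (41.96 to 67.1) in Ring1aKO, Ccr2, the chemokine receptor of recruited monocytes, was 431 and 174 CPM, and C1qa was 1326 and 2316 CPM. In the monocyte gate, which uses Ly6c2 and Ccr2 among its 6 genes, Ly6c2 was 1129 and 292 CPM and Ccr2 515 and 264 CPM. The WT library thus had the higher level of both monocyte genes in both gates. When cells with a Ly6c2 UMI were left out, an alternative chosen after these values were seen, 132 WT and 176 Ring1aKO cells stayed in the C1q macrophage gate. Il10 in them was 439 CPM (396 to 485, 383 UMIs) and 868 CPM (814 to 926, 935 UMIs), and the log2 ratio of 1.53 became 0.98. In the monocyte gate 95 and 98 cells stayed, with Il10 at 142 CPM (115 to 173, 97 UMIs) and 266 CPM (229 to 306, 191 UMIs), and the ratio of 2.25 became 0.90. Il10 was still higher in Ring1aKO in both gates, without overlap of the intervals, but no longer past 2-fold. Most Il10 UMIs of the monocyte gate were in the cells left out, since 97 of 530 WT and 191 of 671 Ring1aKO UMIs stayed. Leaving those cells out raised the WT level there from 76.2 to 142 CPM and lowered the Ring1aKO level from 362 to 266 CPM. The cells with a Ly6c2 UMI in this gate therefore lay below 76.2 CPM in WT and above 362 CPM in Ring1aKO, a wider gap than in the whole gate. Their exact ratio was not computed.

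Other RNA in these gates differed between the libraries too. The summed level of the 6 B markers was 16.4 and 54.5 CPM in the monocyte gate and 35.98 and 191 CPM in the C1q macrophage gate of WT and Ring1aKO, while B cells were far more frequent in Ring1aKO. The 6 T markers summed to 27.3 and 38.8 CPM in monocytes and to 19.5 and 44.8 CPM in C1q macrophages, against 3522 and 4134 CPM in the Treg gate. Of the Il10-positive cells, 73 of 88 WT and 60 of 74 Ring1aKO monocytes, and 62 of 74 WT and 71 of 90 Ring1aKO C1q macrophages, had no UMI of any T marker. When all myeloid cells with a T marker UMI were left out, the log2 ratio in C1q macrophages was 1.83. Il10 in cell-free barcodes was alike in both libraries, 103 CPM (96.9 to 110) and 102 CPM (95.1 to 109).

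Il10 was concentrated in a minority of cells of each source. At least 5 Il10 UMIs were found in 25 WT monocytes (3.38%, 2.20 to 4.95) and in 38 Ring1aKO monocytes (17.1%, 12.4 to 22.7). In C1q macrophages such cells numbered 29 (9.97%, 6.78 to 14.0) and 48 (22.3%, 16.9 to 28.5), and in the Treg gate 72 (33.5%, 27.2 to 40.2) and 86 (36.9%, 30.7 to 43.5). The intervals were separate for both myeloid gates and overlapped for Treg. These cells held between 81.1% and 93.7% of the Il10 UMIs of their gate. The highest cell had 55 and 88 UMIs among monocytes, 54 and 103 among C1q macrophages, and 65 and 78 among Treg, in WT and Ring1aKO.

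**Figure D3:**
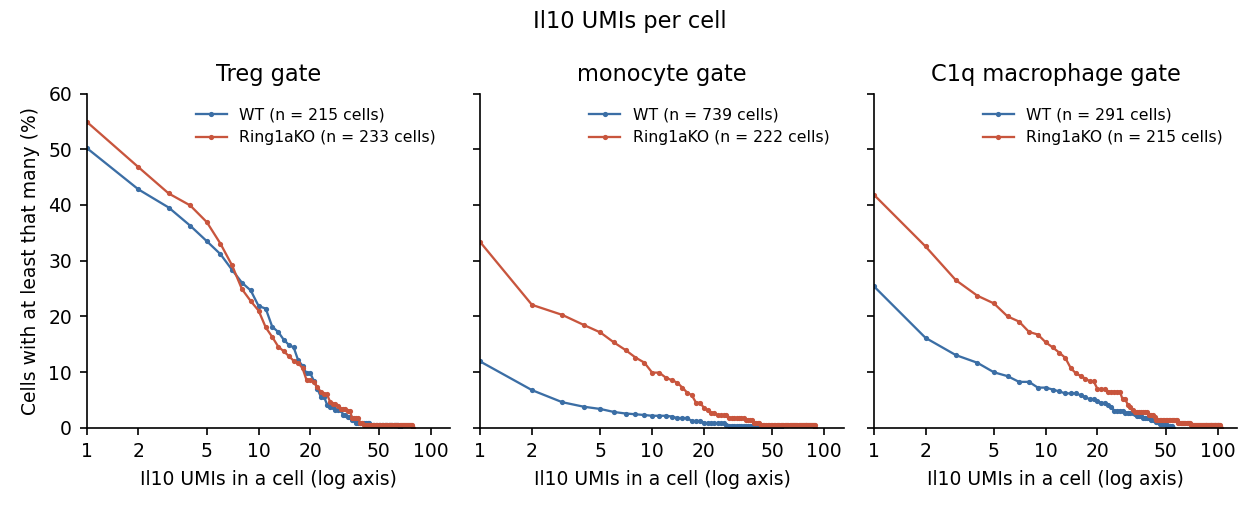
Share of cells (%) with at least the number of Il10 UMIs on the log x axis, in the Treg, monocyte and C1q macrophage gates of WT and Ring1aKO. The curves nearly coincide in the Treg gate, and the Ring1aKO curve lies above the WT curve over most of its length in both myeloid gates, with 17.1% against 3.38% of monocytes at 5 UMIs or more.

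The share of monocytes with any Il10 UMI was 11.9% in WT and 33.3% in Ring1aKO, at median depths of 9795 and 8137 UMIs, so the library with more positive cells was the shallower. After thinning to 1000 UMIs these shares were 4.06% (2.76 to 5.74) and 18.5% (13.6 to 24.2). In C1q macrophages they were 25.4% and 41.9% at depths of 9378 and 6306 UMIs, and 10.997% (7.64 to 15.2) and 24.7% (19.0 to 31.0) after thinning. The Il10 UMIs per positive cell were closer, 6.02 and 9.07 in monocytes and 9.50 and 11.5 in C1q macrophages.

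Within the Treg gate, cells with an Il10 UMI had more of some genes than cells without, and less of others, in both libraries. Gzmb, the cytotoxic protease granzyme B, was 2015 against 295 CPM in WT and 1587 against 386 CPM in Ring1aKO. The co-inhibitory receptor gene Lag3 was 146 against 24.9 CPM in WT and 179 against 65.0 CPM in Ring1aKO, and Havcr2, which encodes TIM-3, was 149 against 40.2 and 67.4 against 25.5 CPM. Maf, a transcription factor that activates Il10 in T cells, was 2144 against 1044 CPM and 1248 against 625 CPM. Ikzf2, which encodes Helios, went the other way, with 740 against 1606 CPM and 404 against 951 CPM, as did Gata3 with 244 against 409 and 127 against 338 CPM. Areg and Itgb8 were also lower in the positive cells of WT, at 881 against 1051 CPM and 88.1 against 129 CPM. In Ring1aKO they were 613 against 642 CPM and 35.2 against 42.1 CPM, and the intervals of both differences held 0. Foxp3 itself was 560 against 496 CPM in WT and 379 against 449 CPM in Ring1aKO. Its log2 difference was 0.18 (-0.03 to 0.38) in WT, whose interval held 0. In Ring1aKO it was -0.24 (-0.44 to -0.04), so the direction was not shared. Il10-positive Treg were deeper than Il10-negative ones in Ring1aKO, with medians of 7507 and 5471 UMIs, and close to them in WT, with 5563 and 5400.

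Within the C1q macrophage gate the scavenger receptor gene Cd163 was 6.12 CPM in Il10-positive and 61.5 CPM in Il10-negative cells of Ring1aKO, from 4 and 45 UMIs, and had 2 and 6 UMIs in WT. Il1rn, the interleukin-1 receptor antagonist, was 2260 against 1291 CPM in WT and 2295 against 1502 CPM in Ring1aKO. Tnf was 533 against 341 CPM and 548 against 411 CPM, so the inflammatory cytokine was also higher in the Il10-positive cells. Socs3 was 666 against 563 CPM in WT, and 620 against 536 CPM in Ring1aKO. Mrc1, the mannose receptor of resident macrophages, was 286 against 127 CPM in WT and 361 against 293 CPM in Ring1aKO. Ly6c2, a monocyte gene, was lower in the positive cells, with 484 against 989 CPM and 35.2 against 69.7 CPM. Ccr2, another monocyte gene, was lower in the positive cells of WT only, 334 against 466 CPM. In Ring1aKO it was 182 against 167 CPM, and the interval of this difference held 0. C1qa was higher in Il10-positive cells of WT, 1773 against 1168 CPM, and close in Ring1aKO, 2223 against 2399 CPM.

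The receptor genes marked the myeloid gates. Il10ra (ENSMUSG00000032089, chr9:45253837-45269149, minus strand), which encodes the ligand-specific chain, was highest in C1q macrophages, 215 CPM (198 to 233) in WT and 159 CPM (139 to 181) in Ring1aKO. Monocytes followed with 200 CPM (189 to 210) and 149 CPM (132 to 167), and neutrophils with 178 CPM (152 to 207) and 132 CPM (113 to 155). These levels overlapped with their neighbours in the order within each library. In all 3 gates the Ring1aKO library was lower by a similar amount, with log2 ratios of -0.42 in monocytes, -0.43 in C1q macrophages and -0.43 in neutrophils, and separate intervals in the first 2 of these gates. ILC2 had 49.6 CPM from 10 UMIs in WT and 135 CPM (84.7 to 205) from 22 UMIs in Ring1aKO. The B gate came next among classes of over 100 cells, with 60.7 CPM (54.8 to 67.0) and 70.8 CPM (67.0 to 74.8). Treg had 35.6 CPM (26.6 to 46.7) and 36.3 CPM (28.7 to 45.3), and the other T gates lay between 4.40 and 22.7 CPM.

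Il10rb (ENSMUSG00000022969, chr16:91406164-91425834, plus strand), which encodes the chain shared with the receptors of IL-22 and the type III interferons, was highest in neutrophils, 159 CPM (135 to 187) in WT and 146 CPM (125 to 169) in Ring1aKO. Monocytes had 115 CPM (108 to 124) and 142 CPM (125 to 160), and C1q macrophages 104 CPM (91.8 to 116) and 133 CPM (114 to 154). The log2 ratios were 0.30 (0.09 to 0.50) and 0.36 (0.08 to 0.63), so the receptor chains differed in opposite directions between the libraries in these gates. After thinning the Il10rb ratio was 0.08 in monocytes and 0.91 in C1q macrophages. Treg had 45.2 and 47.0 CPM, and B cells 35.3 and 37.5 CPM, with overlapping intervals in each.

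**Figure D4:**
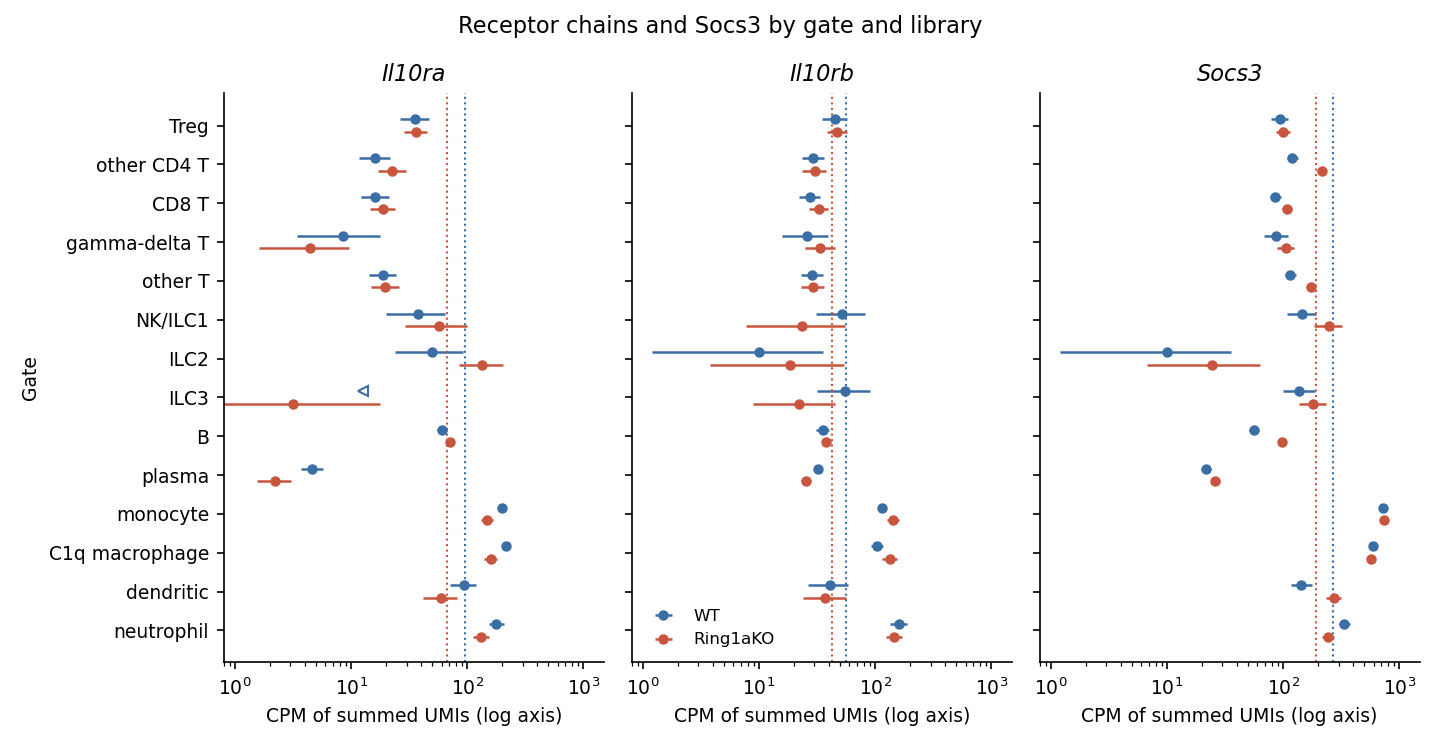
Il10ra, Il10rb and Socs3 levels (CPM, log axis) in 14 gates of WT and Ring1aKO, with exact 95% Poisson intervals. Dotted lines are the cell-free levels of each library and the open triangle is an upper bound where no UMI was found. Monocytes, C1q macrophages and neutrophils lead for both receptor chains in WT and for Il10rb in Ring1aKO, ILC2 stand among them for Il10ra in Ring1aKO at 135 CPM, and monocytes lead for Socs3 at 722 and 732 CPM.

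Both chains were detected in the same cell in 41.7% (38.1 to 45.3) of WT and 38.7% (32.3 to 45.5) of Ring1aKO monocytes. The share was 41.6% (35.9 to 47.5) and 28.4% (22.5 to 34.9) in C1q macrophages and 24.5% and 23.4% in neutrophils. It was 4.65% and 7.30% in Treg and 4.83% and 5.11% in B cells. The lower share of Ring1aKO C1q macrophages went with a lower depth, and after thinning to 1000 UMIs it was 1.72% in WT and 1.86% in Ring1aKO, at which depth few cells show both.

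Stat3 (ENSMUSG00000004040, chr11:100885098-100939540, minus strand), the transcription factor that the receptor activates, was lower in Treg of Ring1aKO and a little higher in its monocyte and C1q macrophage gates. In the Treg gate it was 617 CPM (577 to 658) in WT and 379 CPM (353 to 406) in Ring1aKO, a log2 ratio of -0.70 (-0.84 to -0.56). That ratio shrank to -0.31 when cells with 2 of Ikzf2, Ctla4 and Il2ra were also counted as Treg. Outside the Treg gate the differences were smaller. Stat3 was 302 CPM (289 to 315) and 354 CPM (327 to 382) in monocytes, with a ratio of 0.23. In C1q macrophages it was 256 CPM (237 to 275) and 327 CPM (298 to 359), with a ratio of 0.36 that turned to -0.10 after thinning. In neutrophils Stat3 was lower in Ring1aKO, 337 CPM (302 to 376) and 263 CPM (235 to 294), a ratio of -0.36. Stat3 was highest in NK/ILC1 cells at 808 and 1096 CPM and in gamma-delta T cells at 760 and 889 CPM, and lowest in plasma cells at 39.6 and 38.6 CPM. RNA levels do not show how much STAT3 is phosphorylated.

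Socs3 (ENSMUSG00000053113, chr11:117966079-117970047, minus strand) stood at nearly the same level in both libraries in the monocyte and C1q macrophage gates. It was 722 CPM (702 to 742) in WT and 732 CPM (694 to 772) in Ring1aKO monocytes, a log2 ratio of 0.02 (-0.07 to 0.11). In C1q macrophages it was 590 CPM (561 to 619) and 576 CPM (536 to 617), a ratio of -0.03 (-0.16 to 0.09). By counting error alone these intervals reached 0.16 at most on the log2 scale, beside the 2.25 and 1.53 of Il10. They leave out the spread over cells and mice, so they do not bound the difference. The ratio was -0.17 in C1q macrophages after thinning and 0.13 in monocytes without cells holding a Ly6c2 UMI. Several other classes, lymphoid and myeloid, differed more. Socs3 was 120 CPM (107 to 133) and 214 CPM (196 to 233) in the other CD4 T gate, a ratio of 0.83, and 56.3 CPM (50.7 to 62.4) and 98.5 CPM (94.0 to 103) in B cells, a ratio of 0.80. Dendritic cells had 144 CPM (116 to 175) and 272 CPM (233 to 315) from 39 and 46 cells. The 5 highest dendritic cells held 67.7% and 56.6% of these Socs3 UMIs, which the intervals do not take into account. In each of these classes the Ring1aKO library was higher, without overlap of the level intervals and short of 2-fold. Neutrophils went the other way, with 335 CPM (300 to 374) and 244 CPM (217 to 273), and Treg had 93.9 and 101 CPM with overlapping intervals.

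The stretch before the RefSeq start of Socs3 is shown because Socs3 is a direct STAT3 target and its window was the one of those found that held a STAT-type motif. RefSeq windows on GRCm38.p6 matched 3 of the 6 members, Stat3, Socs3 and Bcl3. The 250 bases before each start were searched on both strands for TTCNNNGAA, a palindrome that STAT proteins bind. It was found once upstream of Socs3, 154 bases before the RefSeq start, and 7.02% of the 32851 windows of this length held it. No match lay in the Stat3 and Bcl3 windows. The 165 bases of the Socs3 window outside any annotated exon, chr11:117969452-117969616 on the minus strand, are given 5′ to 3′ with the motif in capitals. The RefSeq start lies inside the GENCODE span given above, which reaches 117970047, so these bases are upstream of the RefSeq start and within that span.
Socs3, before the RefSeq start: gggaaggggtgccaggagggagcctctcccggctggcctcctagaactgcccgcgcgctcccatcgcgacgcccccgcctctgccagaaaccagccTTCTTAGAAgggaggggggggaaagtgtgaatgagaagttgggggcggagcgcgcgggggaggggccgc

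Bcl3 (ENSMUSG00000053175, chr7:19808462-19822770, minus strand) was highest in neutrophils, 207 CPM (179 to 238) in WT and 221 CPM (196 to 250) in Ring1aKO, and in monocytes, 201 CPM (191 to 212) and 240 CPM (218 to 263). The ratio in monocytes was 0.26 (0.10 to 0.41). In C1q macrophages Bcl3 was 134 CPM (121 to 149) and 164 CPM (143 to 187), with a ratio of 0.29 (0.04 to 0.53). Treg had 108 CPM (92.0 to 127) and 114 CPM (100 to 129), and B cells 37.9 CPM (33.3 to 43.0) and 50.4 CPM (47.3 to 53.8). The level intervals were separate in monocytes and B cells and overlapped in C1q macrophages, neutrophils and Treg.

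In the B gate Il10 was low, 5.73 CPM (4.03 to 7.89, 37 UMIs) in WT and 10.5 CPM (9.12 to 12.1, 195 UMIs) in Ring1aKO, with an Il10 UMI in 2% and 2.84% of cells at median depths of 4195 and 4333 UMIs. These shares were no higher than those of the neutrophil gate. Shares alone cannot tell background from Il10 in a few B cells. In the B gate of Ring1aKO, 7 of 3622 cells had at least 5 Il10 UMIs and held 43.6% of the Il10 UMIs of the gate. After 5% of the UMIs were subtracted as cell-free RNA the log2 ratio of 0.85 became 2.93, because little was left in WT. The neutrophil gate of Ring1aKO had 24 Il10 UMIs (19.97 CPM), of which 15 were in 1 cell, and that of WT had 6 (6.21 CPM). In the plasma gate Il10 was 13.9 CPM (12.2 to 15.8) and 18.2 CPM (16.2 to 20.3), and the share of cells with a UMI was 17.9% and 21.9% at median depths of 27827 and 36748 UMIs, and 1.22% and 1.29% after thinning.

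In the 4 other gates compared, no member was past 2-fold except Il10ra in plasma cells. The background was 8.16% of 6505 genes in the Treg gate, 3.94% of 7226 in the other CD4 T gate, 6.34% of 9983 in the B gate and 12.2% of 9508 in the plasma gate. Il10ra in plasma cells was 4.64 CPM (81 UMIs) and 2.21 CPM (38 UMIs), a log2 ratio of -1.05 (-1.67 to -0.50) where the median of all genes was -0.42. It was 0.020 after the subtraction of cell-free RNA and 0.30 after thinning, so its direction did not hold. The median was -0.07 in both CD4 gates and -0.19 in B cells.

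**Figure D5:**
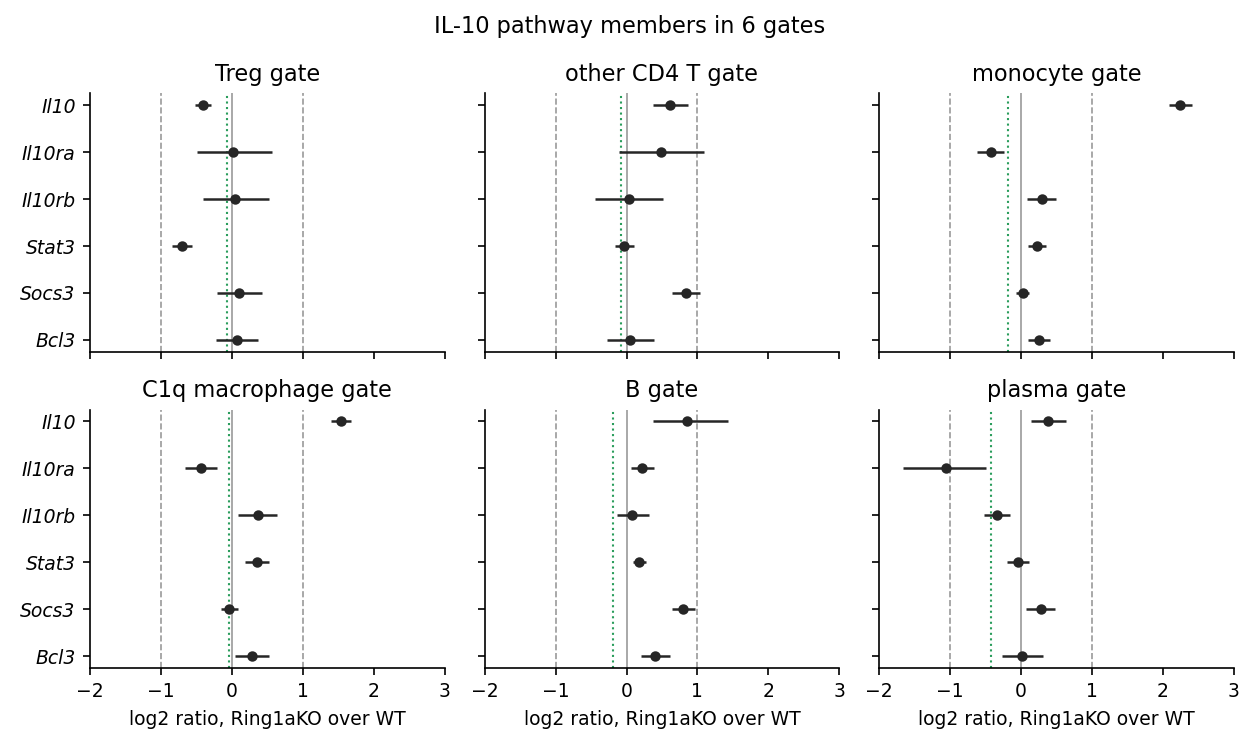
Log2 ratio of Ring1aKO over WT for the 6 members in 6 gates, with conditional exact 95% intervals for counting error. Dashed lines mark 2-fold and the dotted green line the median of all genes compared in that gate. Il10 in monocytes (2.25) and C1q macrophages (1.53) and Il10ra in plasma cells (-1.05) lie past 2-fold.

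Sums over all cells mixed these levels with the makeup of the libraries. Over all cells Il10 was 59.4 CPM in WT and 75.2 CPM in Ring1aKO, a log2 ratio of 0.34. Il10ra was 63.6 and 44.5 CPM (-0.51), and Socs3 195 and 140 CPM (-0.48), although its level in the monocyte gate, which had the highest level and held fewer Ring1aKO cells, was nearly the same. Il10rb was 49.3 and 41.9 CPM, Stat3 245 and 259 CPM and Bcl3 66.4 and 56.4 CPM.

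The surrounding pathway was described by textbook lists. Their counts stand beside 8.91% of all genes compared past 2-fold in the monocyte gate and 6.28% in the C1q macrophage gate. Of genes that IL-10 is known to raise in macrophages, 14 of 15 could be compared in monocytes, with 1 past 2-fold higher, 1 lower and a median log2 ratio of -0.21. The higher gene was Il1r2, the interleukin-1 decoy receptor, at 141 and 375 CPM (1.42). The lower one was Socs1, an inhibitor of interferon signalling, at 63.3 and 14.0 CPM (-2.12). Il1rn (-0.04), Zfp36, which destabilises cytokine mRNAs (-0.25), Nfil3 (0.02) and Sbno2 (-0.16) were the most abundant and were short of 2-fold. In C1q macrophages all 15 could be compared, 2 were higher and none lower, and the median was 0.22. Hmox1, heme oxygenase, was 63.9 and 175 CPM (1.46), and Cd163, the haptoglobin-haemoglobin scavenger receptor of resident macrophages, was 2.94 and 35.4 CPM from 8 and 49 UMIs (3.45). Mrc1 was 169 and 325 CPM (0.94), and Il1r2 was 231 and 358 CPM (0.63). Zfp36 (0.05), Il1rn (0.28) and Nfil3 (-0.18), which with Il1r2 were the most abundant of the list, were also short of 2-fold.

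Of genes that IL-10 is known to lower in macrophages, 12 of 13 could be compared in monocytes, with 3 higher, 2 lower and a median of 0.49. Il1a was 156 and 371 CPM (1.25), Ccl3 389 and 780 CPM (1.00) and Il12a 5.75 and 11.9 CPM (1.07). Cxcl10, an interferon-induced chemokine, was 1543 and 320 CPM (-2.27), and Nos2 31.6 and 12.4 CPM (-1.30). The abundant Il1b (0.14), Ptgs2 (0.38) and Ccl4 (0.98) were short of 2-fold. In C1q macrophages 11 could be compared, with 2 higher, 1 lower and a median of 0.28. Il1a was 177 and 364 CPM (1.04) and Il23a 28.6 and 64.3 CPM (1.16), while Nos2 was 26.4 and 2.17 CPM (-3.21). Il1b (-0.07), Ccl4 (0.61), Ptgs2 (0.04) and Cxcl10 (-0.94) were short of 2-fold. Over all genes compared, 8.91% were past 2-fold in the monocyte gate and 6.28% in the C1q macrophage gate, with medians of -0.19 and -0.04. Members of this list went both ways, and an effect of IL-10 on them was not tested.

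Among the kinases of the pathway, the receptor kinase gene Jak1 had ratios of -0.22 in monocytes and 0.16 in C1q macrophages, and Jak2 of 0.03 and -0.51. Ptpn6, a phosphatase that dampens cytokine signals, had ratios of -0.30 and -0.21. Other receptors that signal through STAT3 had no member past 2-fold in either myeloid gate. Il6ra was at -0.92 in monocytes and -0.29 in C1q macrophages, Csf3r at -0.55 and -0.21, and Il21r at -0.52 and -0.27. Il6st was at 0.24 and 0.22, and Lifr at 0.82 and 0.78. The part of the lower Cxcl10 level in the Il10 difference of the monocyte gate was not tested.

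Of the regulators of Il10 transcription, 1 of 13 compared was past 2-fold in monocytes and 0 of 13 in C1q macrophages. Over all genes compared these shares were 8.91% and 6.28%. The median ratios of the regulators were 0.05 and 0.01. The regulator past 2-fold was Irf4 in monocytes, at 17.0 and 34.5 CPM from 118 and 64 UMIs (1.03). Maf was 30.8 and 28.0 CPM in monocytes (-0.11) and 71.6 and 137 CPM in C1q macrophages (0.94). Cebpb, Nfkb1, Bhlhe40 and Nfil3 were the most abundant, and their ratios were 0.05, 0.18, 0.55 and 0.02 in monocytes and -0.07, 0.20, 0.19 and -0.18 in C1q macrophages. In the Treg gate none of the 15 regulators compared was past 2-fold, beside 8.16% of all genes compared there. Maf was at 1600 and 1020 CPM (-0.65) and Ahr at 126 and 73.5 CPM (-0.78). NF-κB inhibitors and Socs genes had Socs1 past 2-fold in monocytes and no gene past it in C1q macrophages, where Socs1 was 62.4 and 31.8 CPM (-0.95). Nfkbia, which encodes IκBα, was 2979 and 5028 CPM in monocytes (0.76) and 2645 and 3115 CPM in C1q macrophages (0.24). Tnfaip3, Nfkbiz and Nfkbie had ratios of 0.43, 0.27 and -0.38 in monocytes and 0.15, 0.25 and -0.61 in C1q macrophages.

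In the Treg gate the lists of genes raised and lowered by IL-10 in macrophages had 1 of 12 and 2 of 7 genes past 2-fold, all lower in Ring1aKO. Over all genes compared in this gate 8.16% were past 2-fold, 323 lower and 208 higher. The list genes past 2-fold were Tnip3 (-1.07), Tnf (-1.46) and Ptgs2 (-1.24). Tnf and Ptgs2 were far higher in the monocyte gate, at 177 and 2848 CPM in WT. The 6 monocyte/macrophage markers summed to 240 CPM in the WT and 46.5 CPM in the Ring1aKO Treg gate, and their part in these ratios was not tested. In the other CD4 T gate, Socs1 was higher, 75.1 and 173 CPM (1.197), and Il22, an IL-10 family cytokine that acts on epithelium, was lower, 854 and 149 CPM (-2.52). Il23r (-2.58), Il23a (-4.19), Il1rn (-2.12), Il1b (-1.195) and Ptgs2 (-1.11) were also past 2-fold lower there. In the B gate Il22 (-1.55), Il6 (-1.31) and Tbx21 (-1.39) were lower and Gata3 (1.03) was higher. In plasma cells Il22 was higher (1.80), and Il6 (-2.61), Ptgs2 (-1.49), Il6ra (-1.34), Socs6 (-1.14), Il1b (-1.07) and Tnf (-1.01) were lower, where 1103 of the 1158 genes past 2-fold were lower. The 6 monocyte/macrophage markers summed to 84.8 CPM in WT and 47.8 CPM in Ring1aKO in the other CD4 T gate. They summed to 97.1 and 60.0 CPM in the B gate and to 80.8 and 29.8 CPM in the plasma gate. Il22 was low in both gates, 26.5 and 9.03 CPM in B cells and 3.67 and 13.0 CPM in plasma cells. The 6 T markers summed to 28.2 and 46.0 CPM in the B gate and to 16.1 and 20.9 CPM in the plasma gate. The part of RNA from other cells in the ratios of these gates was not tested. In C1q macrophages Il22 had 19 and 83 UMIs (3.05), while the 6 T markers were at 19.5 and 44.8 CPM there. The other IL-10 family genes of the list, Il19, Il20, Il24, Il20ra, Il20rb, Il22ra1, Il22ra2 and Ifnlr1, had too few UMIs to be compared in any of the 6 gates.

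Over the 28 gate-by-library levels, the genes most alike to Il10 by Pearson correlation of log2(CPM + 1), among 12560 genes, were BC049352, Zfp467, Gbp2b, Ednrb and Trpm4, with r between 0.76 and 0.79. For Il10ra they were Nuak2, Gla, Snx10, Dusp2 and Anks1 (0.81 to 0.84). For Socs3 they were Esd, Atp6v1b2, Pgam1, Atp6v0d1 and Sbno2 (0.86 to 0.91), of which Sbno2 is a known STAT3 target. The 28 points come from 2 libraries and differ in cell number and depth, so these are descriptions.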

How the data were processed

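Libraries of CD45+ colonic LP cells from 5 pooled mice per genotype (1 WT, 1 Ring1aKO) were used. The authors deposited unfiltered matrices of raw UMI counts per gene and barcode, with no normalization. The matrix headers named Cell Ranger 4, the submitters' processing notes named Cell Ranger 6.0.2, Seurat and mm39, and the paper's methods another release and mm10. The versions were not reconciled. Coordinates came from GENCODE on GRCm38 and were used for annotation only.

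The members and gene lists were chosen with earlier results of these data known. Cells were barcodes with at least 1000 UMIs, at least 500 genes and less than 5% mitochondrial UMIs. No doublet caller was run and doublets were kept. A cell took the lineage with most detected markers of lists of 6, if at least 3 were detected and the lead was at least 2. Treg were T cells with a Foxp3 UMI and no Cd8a or Cd8b1 UMI. C1q macrophages had at least 2 of C1qa, C1qb and C1qc and at least 3 UMIs of them, and monocytes at least 2 of Ly6c2, Ccr2, Plac8, Fn1, Chil3 and Vcan. Counts were summed per gate and library. Intervals were exact Poisson, Clopper-Pearson (shares) or conditional on the sum of both counts (ratios), at 95%. A gene was compared where its UMIs in the libraries summed to 50 or more, and called past 2-fold. The text names the 6 members and, of each list, the genes past 2-fold in the 6 gates compared. In the monocyte and C1q macrophage gates it also names the 4 genes of each list with most UMIs. Any other gene was picked with its values in view. A gene of the list of kinases and transcription factors is not reported here. Cell-free barcodes had fewer than 100 UMIs. The ratio was checked on simulated counts of the monocyte gate with known changes. Python 3.11.15, numpy 2.4.6, scipy 1.17.1, pandas 2.3.3 and matplotlib 3.10.9 were used. Results were recomputed under 12 other settings, and under 3 more chosen after seeing the data.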

Additional observations from a re-analysis of the deposited data

Results flagged for a closer look

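Il10rb stood out in barcodes that the comparisons left out, those with at least 500 and fewer than 1000 UMIs. In the 457 such WT barcodes it was 128 CPM (91.5 to 173, 41 UMIs), above the 55.9 CPM (upper bound 60.8) of cell-free barcodes. In the 698 Ring1aKO barcodes of that size it was 65.8 CPM (45.0 to 92.9, 32 UMIs), against a cell-free level of 42.1 CPM (upper bound 46.6), so these intervals overlapped only at their edges. Of the other 5 members, Socs3 in Ring1aKO lay below the cell-free level, 140 CPM (109 to 177) against 191 CPM, and the rest overlapped it in both libraries.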

How the results depend on the processing

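No paired analysis was possible because there was a single library per genotype. Of 140 values of the 12 main results under the alternatives, 114 stayed within counting error of the value given and 26 moved, with no called value reversed. Without cells holding a Ly6c2 UMI, Il10 was 0.90 in monocytes and 0.98 in C1q macrophages, short of 2-fold, and Socs3 in monocytes was 0.13. Under the other settings Il10 ranged from 1.999 to 2.33 and from 1.42 to 1.83, the last value without cells holding a T marker UMI. As a mean over cells, Il10 was -0.21 in Treg, 0.012 in other CD4 T, 1.999 in monocytes and 0.13 in plasma cells. Thinned to 1000 UMIs, Il10 was -0.27 in Treg, -0.19 in other CD4 T and -0.47 in plasma cells, Socs3 in C1q macrophages was -0.17, and the Treg share of Il10 was 44.5% and 31.2%. With the wider Treg gate Il10 was -0.15 in Treg and 1.65 in other CD4 T, and the Treg share was 39.2% and 30.4%. With Foxp3 at 2 UMIs or more that share was 27.3% and 21.8%, with 4 markers 30.9% in WT, with 2 markers and a lead of 1 26.9% in Ring1aKO, and without the 5 highest cells 34.3% in WT. With fewer than 5000 genes per cell, Il10 in Treg was -0.23. With 5% cell-free RNA subtracted, Il10 in B cells was 2.93 and Il10ra in plasma cells reversed to 0.020, as it did on thinning (0.30). Without immunoglobulin UMIs, Il10 in plasma cells was 0.75. Of 436 other values, 372 stayed, 62 moved and 2 reversed. The share of genes past 2-fold in Treg was 8.16%, 4.86% thinned and 4.17% with the wider gate, and in B cells 6.34% and 3.81% thinned. The causes were not tested. With 1 library each, the variation between mice is unknown.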
